A study of Mus musculus with 6 samples.

Results

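The genes described here encode the machinery of synaptic vesicle release and the adhesion and scaffold proteins of synapses. They were taken from a list of 46 symbols, and all 46 had a probe set of their own among the 22180 genes read by one in the table. The list had been drawn up with earlier results of these data known. Each gene was read from the probe set that carries only its symbol and, where there were several, has the highest mean over all arrays.

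Lumbar dorsal root ganglia (DRGs) were taken from naïve adult mice of the C57Bl/6 strain, 3 HDAC4 Nav1.8 cKO samples and 3 wild-type samples (HDAC4 fl/fl), with 1 Affymetrix Mouse Gene 2.0 ST array for each sample. Both groups carry the floxed *Hdac4* allele. In the cKOs Cre recombinase is driven from the Nav1.8 locus, which is active from embryonic life mainly in small nociceptive neurons, so the ganglion also holds cells that the deletion does not target, such as glia. Whether a sample is 1 animal is not given in the labels, so the tests measure only the spread between these samples. Values are log2 signals normalized by robust multichip average (RMA), in which a step of 1 is a doubling, and differences are cKO minus wild-type. As probe sets differ in how well they bind, the level of a gene is not ranked here against that of another gene.

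Transmitter is released when a synaptic vesicle fuses with the presynaptic membrane. SNARE proteins of the vesicle (VAMPs) and of the plasma membrane (syntaxin and SNAP family) zip together to drive fusion, synaptotagmins sense the calcium that triggers it, and RIM, Munc13, Bassoon and Piccolo hold the vesicles at the active zone. In sensory neurons these mRNAs are made in the cell body in the ganglion, while most of the proteins act at the central terminals in the spinal cord, and the same SNAREs also serve peptide release from peripheral endings. Most of the families have several paralogs, some typical of neurons and others found in nearly every cell.

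The arrays were alike as a whole, with pairwise correlations of 0.987 to 0.994, but not in sex-linked genes. *Xist*, the RNA of the inactive X chromosome, read 11.74, 6.67 and 5.95 in cKO replicates 1, 2 and 3, against 11.60, 11.71 and 11.60 in the wild-type arrays. The Y-linked gene *Uty* read 4.59, 9.26 and 9.01 in the cKO arrays, against 4.50, 4.59 and 4.31 in the wild-type arrays. Sex is therefore not balanced on these arrays, although the methods state that groups were matched for it, and cKO replicate 1 is the single cKO array that resembles the wild-type arrays in these genes. The floxed gene *Hdac4* averaged 9.17 ± 0.04 in cKO DRGs and 9.30 ± 0.17 in wild-type DRGs (SD, n = 3 each), which is -0.13 in log2 fold change (limma adjusted p = 0.776), and the exons its probe set covers are not given in the sources used here. The paper itself found less *Hdac4* mRNA by quantitative PCR, floxed exons included, and less HDAC4 protein by Western blot. It considered the remainder likely to come from cells outside the deletion. Over the 12 sensory neuron genes measured, log2 fold changes ran from -0.21 to 0.21. The groups did not overlap for 3 of the 12 (25%), against 13.7% of all genes. Among the 12, *Scn10a*, which encodes Nav1.8, averaged 12.33 ± 0.05 in cKO DRGs and 12.30 ± 0.16 in wild-type DRGs (SD, n = 3 each).

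The synaptic genes had nearly the same level in both groups. Over the 46 genes the median log2 fold change was 0.02, with 31 positive and 15 negative, against a median of 0.00 over all 22180 genes. The differences ran from -0.24 for *Snap23* to 0.20 for *Shank1*. In limma, 0 of 46 genes passed an adjusted p of 0.05 (smallest limma adjusted p = 0.652), as did 0% of the 41345 probe sets. The 95% confidence intervals of all 46 stayed within 0.5 of 0, with the farthest end at 0.46, and those of 87.3% of all genes did so. The means of the 46 genes were 9.94, 9.94 and 9.96 in the cKO arrays, against 9.92, 9.94 and 9.91 in the wild-type arrays. Every member had a mean above 6.05, the 95th percentile of 1390 odorant and vomeronasal receptor genes taken as a rough background, and the lowest was *Shank1* at 7.14.

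Without adjustment 4 of the 46 genes (8.7%) had a p under 0.05 in limma, against 5.48% of all genes. They were *Shank1* and *Rab3b*, higher in the cKOs, where 2.67% of all genes are found, and *Snap23* and *Vamp3*, lower in the cKOs, where 2.8% are found. The 3 cKO arrays and the 3 wild-type arrays did not overlap for 9 of the 46 (19.6%), against 13.7% of all genes. Of these, 6 were higher (*Syn1*, *Syt1*, *Nlgn2*, *Shank1*, *Rab3b* and *Unc13a*), as were 6.3% of all genes, and 3 were lower (*Snap23*, *Vamp3* and *Unc13b*), as were 7.4% of all genes. None passed the adjustment. With sex as a covariate, so that only cKO replicate 1 informs the comparison with wild-type, 0 of the 46 had an unadjusted p under 0.05, against 6.9% of all genes. Each log2 fold change given below with sex as a covariate is thus cKO replicate 1 alone against the wild-type mean. The count of the 46 at an unadjusted p under 0.05 in limma was 0 without cKO replicate 2 (4.08% of all genes). It was also 0 without wild-type replicate 3 (3.55%), and 6 without cKO replicate 1 (9.27%). Without cKO replicate 1 both cKO arrays have low *Xist*, and genotype cannot be told apart from sex.

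**Figure D1:**
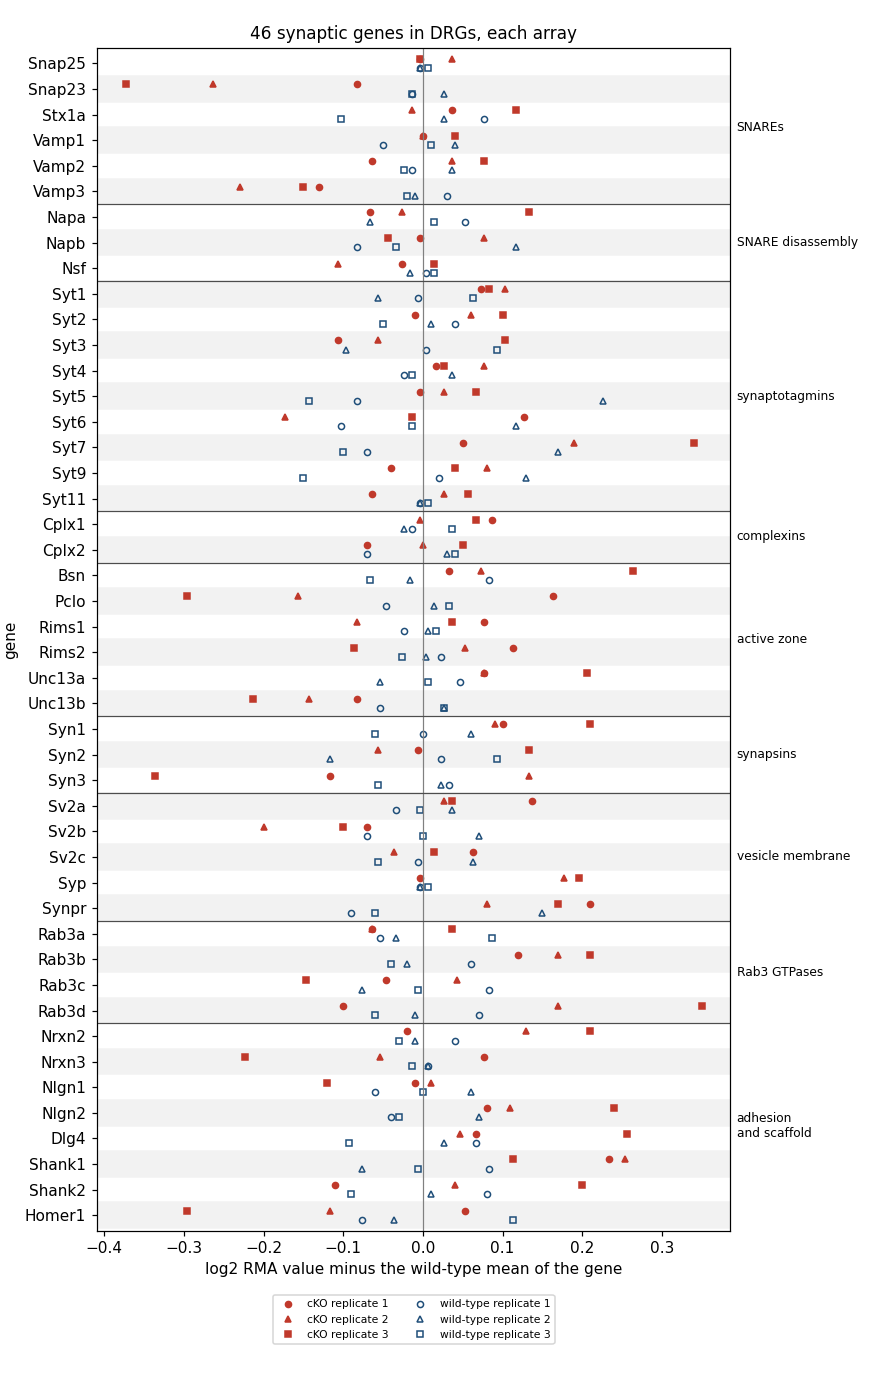
Value of each of the 46 genes in each array, as log2 RMA minus the wild-type mean of that gene, with cKO arrays as filled red symbols drawn above wild-type arrays as open blue symbols, and the shape giving the replicate number. No array departs by more than 0.4, and *Snap23* and *Vamp3* lie below the wild-type mean in all 3 cKO arrays.

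Promoter windows from RefSeq (build GRCm38.p6, 250 bases before and 50 after a transcription start) were found by symbol for 35 of the 46 genes, 51 windows in all. These windows were richer in G and C than windows of the whole table, with medians of 61.3% and 52.7%. The GC box, GGGCGG on either strand, occurs in 29 of the 51 windows (56.9%) and in 35.7% of all 32851 windows. Some genes have several windows, and those of *Syt6* partly overlap, so the windows are not independent. By gene, 26 of the 35 have a GC box in a window, and this share was not computed over all genes. The cyclic AMP response element, TGACGTCA on either strand, occurs in those of *Syn1* and *Napa* and in 1.79% of all windows. A TATA box, TATAAA on either strand, occurs in windows of *Rab3b* and *Sv2b* and in 13.6% of all windows. MEF2 is the factor that HDAC4 is best known to repress, and its motif occurs in 0 of the 51 windows and in 3.19% of all windows. A match is only a match of letters, and its absence says nothing of sites elsewhere.

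The windows of the paralogs *Unc13a* and *Unc13b*, whose groups did not overlap, in opposite directions, of *Snap23*, the gene with the largest difference, and of *Syn1*, the X-linked gene whose groups did not overlap, are shown 5′ to 3′ on the gene's own strand with any GC box, cyclic AMP response element or TATA box in capitals. They lie at chr8:71671708-71672007 (minus strand) for *Unc13a*, chr4:43058703-43059002 (plus strand) for *Unc13b*, chr2:120567421-120567720 (plus strand) for *Snap23* and chrX:20920869-20921168 (minus strand) for *Syn1*. The *Snap23* window holds no match to any of these motifs.
Unc13a: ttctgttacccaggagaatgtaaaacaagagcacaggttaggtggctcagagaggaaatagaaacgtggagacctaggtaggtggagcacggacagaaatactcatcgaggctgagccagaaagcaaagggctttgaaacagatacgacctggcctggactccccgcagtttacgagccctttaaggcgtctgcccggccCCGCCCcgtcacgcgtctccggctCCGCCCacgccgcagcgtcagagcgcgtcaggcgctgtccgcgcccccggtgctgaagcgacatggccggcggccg
Unc13b: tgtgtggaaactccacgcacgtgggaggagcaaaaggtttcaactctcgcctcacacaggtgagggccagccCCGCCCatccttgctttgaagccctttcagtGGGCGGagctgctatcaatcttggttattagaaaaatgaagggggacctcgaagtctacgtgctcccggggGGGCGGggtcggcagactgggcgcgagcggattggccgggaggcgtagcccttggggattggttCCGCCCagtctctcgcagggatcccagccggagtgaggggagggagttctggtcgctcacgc
Snap23: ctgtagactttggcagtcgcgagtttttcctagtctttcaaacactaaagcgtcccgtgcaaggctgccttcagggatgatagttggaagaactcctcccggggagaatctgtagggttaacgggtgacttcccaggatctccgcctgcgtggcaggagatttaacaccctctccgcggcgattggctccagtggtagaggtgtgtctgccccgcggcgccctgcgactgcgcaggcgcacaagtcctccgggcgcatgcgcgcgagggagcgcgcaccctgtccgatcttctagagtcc
Syn1: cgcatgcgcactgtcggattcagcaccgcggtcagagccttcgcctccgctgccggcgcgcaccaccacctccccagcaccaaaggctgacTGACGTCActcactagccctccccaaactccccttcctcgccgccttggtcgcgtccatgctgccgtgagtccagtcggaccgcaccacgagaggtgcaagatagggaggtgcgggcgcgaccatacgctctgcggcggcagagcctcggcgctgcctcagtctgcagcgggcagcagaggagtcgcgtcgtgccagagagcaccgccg

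The core SNAREs of neurons differed between the groups by no more than 0.05. *Snap25*, which encodes the plasma membrane SNARE cleaved by several botulinum toxins, read 13.28, 13.32 and 13.28 in the cKO arrays, against 13.28, 13.28 and 13.29 in the wild-type arrays. *Stx1a*, for its partner syntaxin, read 8.81, 8.76 and 8.89 in the cKO arrays, against 8.85, 8.80 and 8.67 in the wild-type arrays. The groups overlapped for both genes. *Vamp2*, for the vesicle SNARE prevalent in the forebrain, read 10.12, 10.22 and 10.26 in the cKO arrays, against 10.17, 10.22 and 10.16 in the wild-type arrays. *Vamp1*, its close relative typical of spinal cord and brainstem, read 11.02, 11.02 and 11.06 in the cKO arrays, against 10.97, 11.06 and 11.03 in the wild-type arrays. Their log2 fold changes were 0.01 for *Snap25*, 0.05 for *Stx1a*, 0.02 for *Vamp2* and 0.01 for *Vamp1*, each with an SE between 0.06 and 0.08.

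Of the 6 SNARE genes, *Snap23* and *Vamp3*, which are not particular to neurons, were lower on each cKO array than on any wild-type array. *Snap23*, the widely expressed counterpart of *Snap25*, read 9.08, 8.90 and 8.79 in the cKO arrays, against 9.15, 9.19 and 9.15 in the wild-type arrays. It was at 0.847 times wild-type, or -0.24 ± 0.09 on the log2 scale (SE, limma adjusted p = 0.652), with an interval of -0.46 to -0.02 at 95% confidence. cKO replicate 1 lay nearest to the wild-type arrays and cKO replicate 3 farthest from them. *Vamp3*, which encodes cellubrevin, a SNARE of recycling endosomes, read 9.27, 9.17 and 9.25 in the cKO arrays, against 9.43, 9.39 and 9.38 in the wild-type arrays. It was at 0.889 times wild-type, or -0.17 ± 0.07 on the log2 scale (SE, limma adjusted p = 0.661), with an interval of -0.33 to -0.01. With sex as a covariate the log2 fold change was -0.08 for *Snap23* and -0.13 for *Vamp3*.

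Levels of markers of other cell types also differed between these arrays. Of 12 fibroblast and meningeal markers 11 were lower, with list means of 10.43, 10.54 and 10.53 in the cKO arrays, against 10.64, 10.59 and 10.64 in the wild-type arrays. All 18 skeletal muscle markers were higher, with list means of 8.11, 8.69 and 7.97 in the cKO arrays, against 7.03, 6.59 and 8.13 in the wild-type arrays. Pan-neuronal genes, 18 in all, had list means of 11.36, 11.36 and 11.34 in the cKO arrays, against 11.35, 11.37 and 11.33 in the wild-type arrays. The part of these cell types in the values of *Snap23* and *Vamp3* was not tested, and in whole ganglia fewer cells of a type and less RNA per cell cannot be told apart. For satellite glia, myelinating Schwann cells and macrophages the group means differed by 0.01, 0.01 and 0.00. Of 15 spinal cord and oligodendrocyte markers 14 were higher, and the group mean of the list was higher by 0.14. The list means were 5.87, 6.15 and 5.92 in the cKO arrays, against 5.89, 5.82 and 5.80 in the wild-type arrays. cKO replicate 2 was thus the highest, and cKO replicate 1 lay within the wild-type range. The part of central tissue in the values of the synaptic genes was not tested.

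**Figure D2:**
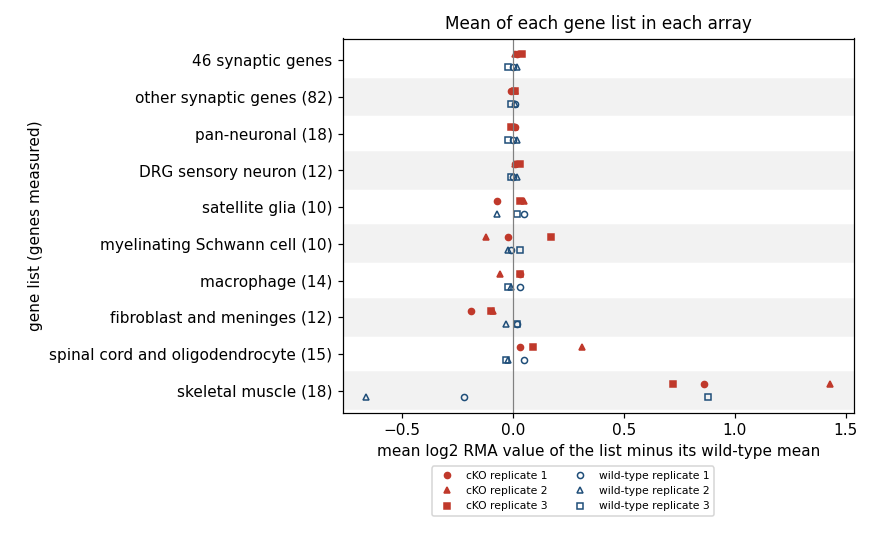
Mean log2 RMA value of each gene list in each array, minus its wild-type mean, with the number of measured genes in parentheses; filled red symbols are cKO arrays and open blue symbols wild-type arrays. The neuronal and synaptic lists stay within 0.04 of the wild-type mean, the fibroblast and meningeal list is lower in each cKO array, and the skeletal muscle list ranges from -0.66 to 1.43.

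The enzymes that take used SNARE complexes apart showed no difference beyond the spread. *Nsf*, the ATPase, averaged 11.77 ± 0.06 in cKO DRGs and 11.81 ± 0.02 in wild-type DRGs (SD, n = 3 each). Its adaptors *Napa*, found in most tissues, and *Napb*, largely of the brain, each differed by 0.01 ± 0.08 (SE).

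Among the 9 synaptotagmins, 7 log2 fold changes were positive and 2 negative, with a median of 0.03 and 0 at an unadjusted p under 0.05 in limma. *Syt1*, for a fast calcium sensor of release, read 11.70, 11.73 and 11.71 in the cKO arrays, against 11.62, 11.57 and 11.69 in the wild-type arrays. The groups thus stood apart by 0.01, the last digit of the table, and the log2 fold change was 0.09, between -0.08 and 0.25 at 95% confidence (limma adjusted p = 0.778). *Syt2*, the other fast sensor, typical of spinal cord and brainstem, read 10.07, 10.14 and 10.18 in the cKO arrays, against 10.12, 10.09 and 10.03 in the wild-type arrays. *Syt7*, a slower sensor of high calcium affinity, had the largest difference of the family at 0.19. It read 9.76, 9.90 and 10.05 in the cKO arrays, against 9.64, 9.88 and 9.61 in the wild-type arrays, so wild-type replicate 2 lay within the cKO range (limma adjusted p = 0.717). With sex as a covariate *Syt7* had a log2 fold change of 0.05.

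The other synaptotagmins lay between -0.02 and 0.04. They were *Syt3* and *Syt6* at -0.02, *Syt5* and *Syt9* at 0.03, and *Syt4* and *Syt11*, whose proteins do not respond to calcium as the fast sensors do, at 0.04 and 0.01. *Syt5* had the widest range of any of the 46 genes among wild-type arrays, 0.37. *Syt4* has 2 dimmer probe sets as well, at -0.09 and 0.31 (SE 0.14 for each), which differ in sign, and dimmer probe sets of *Nrxn2*, *Rab3c* and *Rab3d* likewise had the opposite sign to those used, at -0.06, 0.02 and -0.05. The complexins, which clamp and then assist the SNARE complex, were at 0.05 for *Cplx1* and -0.01 for *Cplx2*.

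At the active zone the Munc13 genes, whose proteins prime vesicles for fusion, lay on opposite sides of 0. Their promoter windows have 61.3% G and C for *Unc13a* and 62.0% for *Unc13b*. *Unc13a* read 10.41, 10.41 and 10.54 in the cKO arrays, against 10.38, 10.28 and 10.34 in the wild-type arrays. All cKO arrays were higher, by 0.12 ± 0.07 on average (SE, limma adjusted p = 0.732). *Unc13b* read 9.14, 9.08 and 9.01 in the cKO arrays, against 9.17, 9.25 and 9.25 in the wild-type arrays. All cKO arrays were lower, by a mean log2 fold change of -0.15 ± 0.07 (SE, limma adjusted p = 0.692). Each cKO array was outside the wild-type range for both genes, by as little as 0.03, and the differences were 0.08 for *Unc13a* and -0.08 for *Unc13b* with sex as a covariate.

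The 2 giant scaffold proteins of the active zone are Bassoon and Piccolo. *Bsn* was at 0.12 and *Pclo* at -0.10 (limma adjusted p = 0.766 and 0.857). *Pclo* read 10.60, 10.28 and 10.14 in the cKO arrays, against 10.39, 10.45 and 10.47 in the wild-type arrays, so the cKO arrays lay on both sides. *Rims1* and *Rims2*, for the RIM proteins that bring calcium channels and vesicles together, were at 0.01 and 0.03.

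*Syn1* encodes synapsin I, which ties vesicles to each other and to actin, and lies on the X chromosome. It read 11.64, 11.63 and 11.75 in the cKO arrays, against 11.54, 11.60 and 11.48 in the wild-type arrays. All cKO arrays were higher, by 0.13 on average, between -0.04 and 0.31 at 95% confidence (limma adjusted p = 0.711), and it was 0.10 with sex as a covariate. *Syn2* was at 0.02 and *Syn3* at -0.11. The cKO range of *Syn3*, 0.47, was the widest of any of the 46 genes.

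*Syp*, for the vesicle protein synaptophysin, is also X-linked. It read 10.46, 10.64 and 10.66 in the cKO arrays, against 10.46, 10.46 and 10.47 in the wild-type arrays. cKO replicate 1, with high *Xist*, matched the wild-type arrays, and both low-*Xist* arrays were higher. The log2 fold change was 0.12 over all arrays (limma adjusted p = 0.741), 0.19 without cKO replicate 1 and 0.00 with sex as a covariate, and in cKO replicates 2 and 3 the genotype cannot be told apart from sex. *Synpr*, for its relative synaptoporin, was at 0.15. The transporter-like vesicle proteins were at 0.07 for *Sv2a*, which is widespread among synapses, -0.12 for *Sv2b* and 0.01 for *Sv2c*, which is restricted in the brain.

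Rab3 proteins are GTPases that bring vesicles to RIM. *Rab3b* read 7.70, 7.75 and 7.79 in the cKO arrays, against 7.64, 7.56 and 7.54 in the wild-type arrays. Its groups did not overlap, and differed by 0.17 ± 0.07 (SE, limma adjusted p = 0.669), or 0.12 with sex as a covariate. The main neuronal form *Rab3a* was at -0.03, *Rab3c* at -0.05 and *Rab3d*, known from secretory gland cells, at 0.14. *Rab3d* read 9.65, 9.92 and 10.10 in the cKO arrays, against 9.82, 9.74 and 9.69 in the wild-type arrays, so that cKO replicate 1 was the lowest of all.

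Of the adhesion and scaffold genes, *Shank1* had the largest positive difference of the 46. It encodes a scaffold protein of the postsynaptic density, and read 7.27, 7.29 and 7.15 in the cKO arrays, against 7.12, 6.96 and 7.03 in the wild-type arrays. The ratio was 1.15, or 0.20 ± 0.08 on the log2 scale (SE, limma adjusted p = 0.661), with an interval of 0.01 to 0.39. It was 0.23 with sex as a covariate, where cKO replicate 1 alone is set against the wild-type arrays. *Nlgn2*, for the neuroligin of inhibitory synapses, read 9.63, 9.66 and 9.79 in the cKO arrays, against 9.51, 9.62 and 9.52 in the wild-type arrays. The gap between the groups was 0.01, and the mean difference 0.14 ± 0.08 (SE, limma adjusted p = 0.706), or 0.08 with sex as a covariate.

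The other adhesion genes were *Nlgn1* at -0.04 and the presynaptic neurexin genes *Nrxn2* at 0.11 and *Nrxn3* at -0.07. *Dlg4*, which encodes PSD-95, was at 0.12, *Shank2* at 0.04 and *Homer1*, for a partner of Shank and of metabotropic glutamate receptors, at -0.12. None of these had an unadjusted p under 0.05 in limma.

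**Figure D3:**
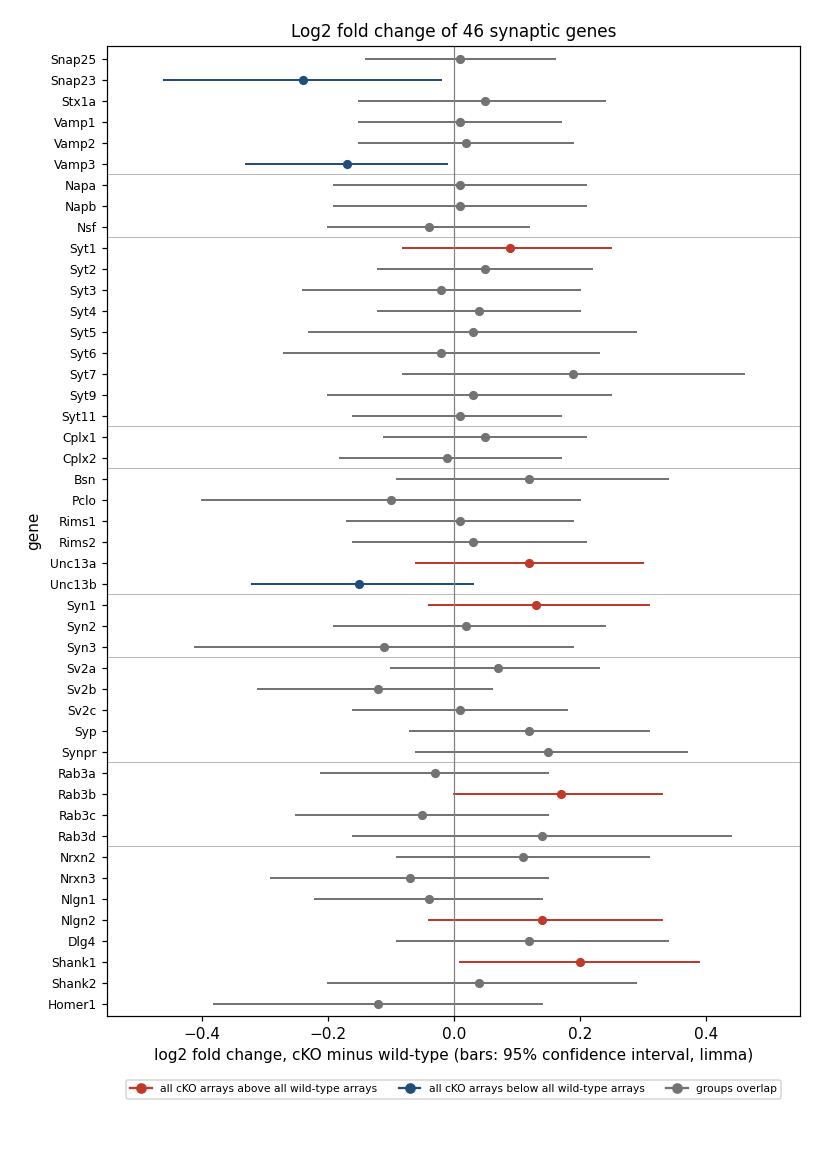
Log2 fold change of each gene, cKO minus wild-type (points), with its 95% confidence interval from limma (bars), ordered by role; red and blue mark genes whose 3 cKO arrays all lie above or all below the 3 wild-type arrays, and grey genes whose groups overlap. All intervals lie within 0.5 of 0, and those of *Snap23*, *Vamp3*, *Shank1* and *Rab3b* do not reach 0, the last by less than 0.01.

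The log2 difference between 2 paralogs within an array still holds the binding strength of both probe sets, but this cancels when the difference is compared between the groups, as was done for 27 pairs. Both groups had overlapping values for 21 of the pairs. *Vamp1* minus *Vamp2* averaged 0.83 ± 0.06 in cKO DRGs and 0.84 ± 0.04 in wild-type DRGs (SD, n = 3 each). *Syt2* minus *Syt1* averaged -1.58 ± 0.05 in cKO DRGs and -1.55 ± 0.10 in wild-type DRGs. The group difference was 0.06 for *Cplx1* minus *Cplx2* and -0.05 for *Sv2c* minus *Sv2a*, again with overlap.

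The groups did separate for *Snap23* against *Snap25*, *Vamp3* against *Vamp2* and *Unc13b* against *Unc13a*. *Snap23* minus *Snap25* was -4.20, -4.42 and -4.49 in the cKO arrays, against -4.13, -4.09 and -4.14 in the wild-type arrays, a group difference of -0.25. *Vamp3* minus *Vamp2* was -0.85, -1.05 and -1.01 in the cKO arrays, against -0.74, -0.83 and -0.78 in the wild-type arrays, a group difference of -0.19. *Unc13b* minus *Unc13a* was -1.27, -1.33 and -1.53 in the cKO arrays, against -1.21, -1.03 and -1.09 in the wild-type arrays. This group difference, -0.27, was the largest of the 27. *Napa* minus *Napb*, a widespread against a neuronal form, differed by 0.00 between the groups, and *Rab3d* minus *Rab3a* by 0.17, both with overlap.

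In all, 6 of 27 pairs did not overlap, the others being *Sv2b* minus *Sv2a* at -0.19, *Rab3b* minus *Rab3a* at 0.20 and *Nlgn2* minus *Nlgn1* at 0.18. The share of other gene pairs without overlap was not computed, so this count has no background beside it. Each of the 6 had an exact permutation p of 0.1 (2-sided), the smallest that 3 arrays against 3 can give, and 0.45 after Benjamini-Hochberg adjustment over the 27 pairs. Pairs that share a gene are not independent, and 5 of the 6 hold a gene whose own groups do not overlap.

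**Figure D4:**
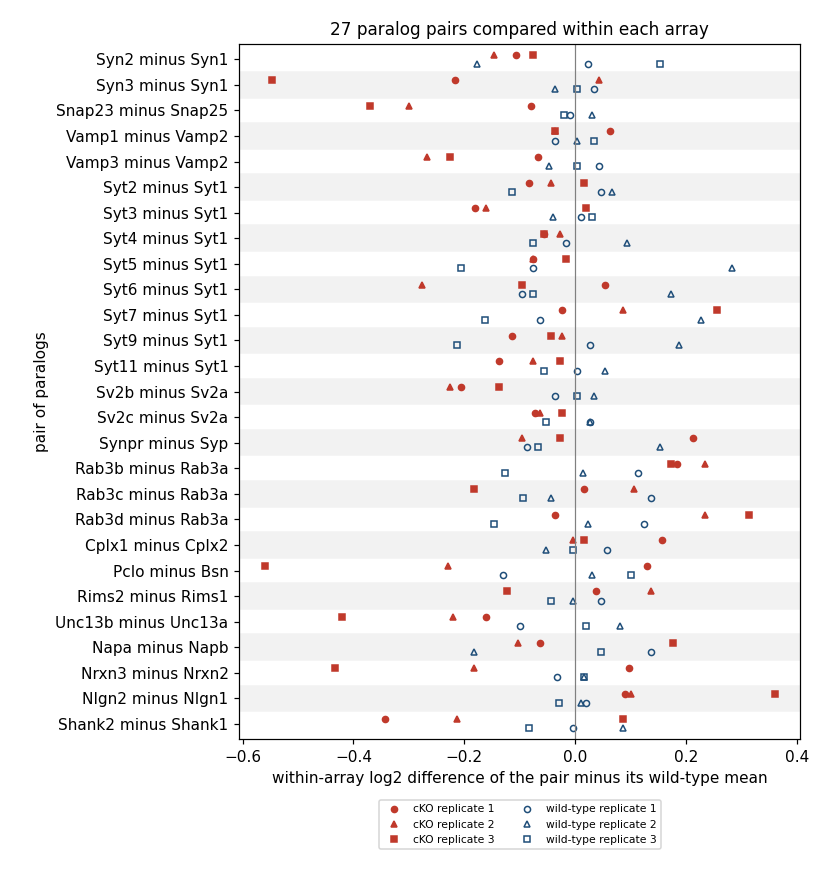
Within-array log2 difference of each pair of paralogs, minus its wild-type mean, for cKO arrays (filled red symbols) and wild-type arrays (open blue symbols). The cKO arrays lie to the left for *Snap23*, *Vamp3*, *Sv2b* and *Unc13b* against their paralogs and to the right for *Rab3b* and *Nlgn2*.

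For these genes the cKO arrays varied more among themselves than the wild-type arrays. The range over 3 arrays was wider in the cKO group for 31 of the 46 genes and narrower for 13, with a median range of 0.13 in cKO arrays and 0.11 in wild-type arrays. The same count was not made over all genes, so it is not shown to be particular to these. Both low-*Xist* cKO arrays lay outside the range of the other 4 arrays for 16 of the 46 genes (34.8%), against 23.9% of all genes. There were 9 above (*Syt1*, *Syt2*, *Syt7*, *Syt11*, *Nrxn2*, *Nlgn2*, *Rab3b*, *Rab3d* and *Syp*), or 19.6%, against 13.1% of all genes. The 7 below (*Snap23*, *Vamp3*, *Sv2b*, *Nrxn3*, *Homer1*, *Pclo* and *Unc13b*) were 15.2%, against 10.9% of all genes. The part of sex in these values was not tested.

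A further 82 measured genes of synapses, from a list of 87, were also near 0. Their median log2 fold change was 0.00, 0 passed the adjusted p of 0.05 in limma, and 6 (7.32%) had an unadjusted p under 0.05, against 5.48% of all genes. The groups did not overlap for 17 of them (20.7%), against 13.7% of all genes. *Ppfia3*, for an active zone liprin, and *Lin7b*, for a scaffold protein, were at 0.21 and 0.28. *Stx3* and *Stxbp6*, for a syntaxin and a syntaxin-binding protein, were at -0.33 and -0.21, *Rab5a*, for the GTPase of early endosomes, at -0.21, and *Sypl*, for a synaptophysin relative found outside neurons, at -0.18. *Stx3* read 8.35, 8.31 and 8.02 in the cKO arrays, against 8.63, 8.53 and 8.51 in the wild-type arrays (limma adjusted p = 0.64). *Lin7b* read 8.35, 8.46 and 8.69 in the cKO arrays, against 8.21, 8.22 and 8.22 in the wild-type arrays (limma adjusted p = 0.647).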

How the data were processed

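Lumbar DRG RNA was labelled by a core facility with an Ambion whole transcript kit and hybridized to Mouse Gene 2.0 ST arrays. The authors made the deposited log2 values with oligo and RMA (background correction, quantile normalization and summary per probe set) and tested them with limma, with no versions given. The table has 41345 probe sets in 6 arrays, with log2 values of 2.35 to 14.03 given to 2 decimals. It gives neither raw intensities nor detection calls, so the number of arrays limits the precision. GEO's platform annotation gives 23521 probe sets exactly 1 gene symbol, and all 46 symbols were also found in RefSeq.

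Here limma 3.58.1 in R 4.3.3 (lmFit and eBayes, group as the only term, prior degrees of freedom 2.51) was fitted to all probe sets, with 2-sided p values adjusted by Benjamini-Hochberg over all of them. The fit was tested on simulated data. Paralog pairs were compared with exact permutation tests in Python 3.11.15. The members, gene lists and pairs were chosen with earlier results of these data known. Values of each array are given for genes at an unadjusted p under 0.05, genes without overlap, the 5 largest differences, X-linked genes and core release genes, and for *Pclo*, *Rab3d*, *Stx3* and *Lin7b*, chosen after their values were seen. From the list of other synaptic genes, those at an unadjusted p under 0.05 are named. Alternatives were cyclic loess, filters on probe sets, the mean of all probe sets of a gene, array weights, eBayes with robust and trend settings, a block for the replicate number, sex read from *Xist* as a covariate, each array left out, and an adjusted p under 0.1. The labels give no batch, and none was modelled.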

Additional observations from a re-analysis of the deposited data

How the results depend on the processing

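Under all alternatives tried, 0 of the 46 synaptic genes passed limma's adjustment. The count of genes at an unadjusted p under 0.05 in limma, 4 in the main fit, was 0 with the replicate block (3.3% of all genes). It was 0 to 6 with an array left out. The lowest, 0, was without cKO replicate 2 (4.08%) or wild-type replicate 3 (3.55%), and the highest, 6, without cKO replicate 1 (9.27%). That last fit sets only low-*Xist* cKO arrays against high-*Xist* wild-type arrays, so genotype cannot be told apart from sex in it. It was also the only alternative in which any of the 41345 probe sets passed an adjusted p of 0.05, 9 in all. Among the 46 genes, those counted changed as well. With robust and trend settings *Syn1* and *Unc13b* took the place of *Shank1* and *Rab3b*, and without wild-type replicate 2 only *Synpr* was counted. Whether the replicate numbers pair the samples is not known, though the methods state that RNA was extracted from samples in matched groups. Deviations of same-numbered arrays from their group means correlated at -0.0394, -0.0786 and -0.0774. With 3 arrays in each group, these values cannot decide it. Among the other synaptic genes the 6 at an unadjusted p under 0.05 numbered 2 with the replicate block, 2 with sex as a covariate and 2 to 12 with an array left out, the highest without cKO replicate 1. The 9 genes without overlap numbered 10 to 19 with an array left out, where fewer arrays must separate (highest without cKO replicate 1, when 31.8% of all genes do not overlap), and 25 for cKO replicate 1 against the wild-type arrays (55.2% of all genes). Pairs without overlap numbered 6 to 11, with no share over other gene pairs computed. The median log2 fold change of 0.02 was 0.00 with sex as a covariate and 0.01 to 0.04 with an array left out. Of the 46 genes 18 changed sign with sex as a covariate, where cKO replicate 1 alone is set against the wild-type arrays. With sex as a covariate *Snap25*, *Syp* and *Vamp1* were at 0.00, *Syt2* at -0.01 and *Vamp2* at -0.06; with an array left out, *Snap25* ranged from 0.00 to 0.02, *Stx1a* from 0.00 to 0.09, *Vamp1* from -0.01 to 0.03 and *Vamp2* from -0.01 to 0.06. Overlap and pairs were not recomputed under settings that act on the fit alone. The cause of these changes was not tested.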
